A study of Mus musculus with 13 samples.

Results

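The 10 genes described here belong to the TNF receptor superfamily: Tnfrsf18, Fas, Tnfrsf1a, Tnfrsf10b, Tnfrsf21, Tnfrsf12a, Tnfrsf19, Ltbr, Tnfrsf22 and Tnfrsf23. They were chosen by name, and every probe set that the array's annotation gives to only 1 of them was followed. That gave 17 probe sets, of 20393 on the array that are named to 1 gene, and 10 genes of 12394. The cells were primary mouse keratinocytes, the main cell type of the epidermis, and every culture had been infected with a retrovirus carrying DNp63alpha fused to an estrogen receptor domain. DNp63alpha is the p63 isoform of basal keratinocytes that lacks the amino-terminal activation domain, and tamoxifen binds the receptor domain and activates the fused factor. The untreated cells had 1 array, and 12 further arrays followed tamoxifen at intervals of 20 min, the last at 240 min. The labels give no strain, animal age, tamoxifen dose or promoter of the retrovirus, and do not say whether the arrays came from separate cultures. Cells without the fusion and a course without tamoxifen were not analysed here, so tamoxifen, elapsed time and handling cannot be told apart.

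Receptors of this superfamily sit in the plasma membrane and are clustered by trimeric ligands of the TNF family. Some members carry a cytoplasmic death domain, which recruits adaptors such as Fadd or Tradd and can switch on caspases or NF-kB. Others have no death domain and bind TRAF proteins, which pass the signal to NF-kB and to MAP kinases. Decoy receptors bind a ligand and carry no death signal. In the epidermis these receptors are known for their part in inflammation, in the death of stressed keratinocytes and in the growth of hair and other appendages.

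The largest rise was that of Tnfrsf18, a receptor best known as a costimulatory molecule of T cells, which was 1.99-fold higher from 80 min on than up to 60 min (log2 difference 0.99 ± 0.0741, SE, 9 against 4 arrays). Fas, the death receptor of Fas ligand, was 1.57-fold higher (0.65 ± 0.0644). Tnfrsf12a, the TWEAK receptor, was 1.35-fold lower (-0.43 ± 0.0545). The decoy receptor gene Tnfrsf23 was 1.23-fold lower (-0.30 ± 0.0794), and its relative Tnfrsf22 passed 1 test or another on each of its 3 probe sets, always as a fall. Tnfrsf23 read nearly the same at 60 and 80 min, and not all Tnfrsf22 probe sets fell between those times. Both Tnfrsf10b probe sets rose by a small amount by a straight line over time. From 80 min, 1 of them and 1 of the 2 of Tnfrsf21 were higher. Tnfrsf19, Ltbr and Tnfrsf1a passed neither test, though Tnfrsf1a passed at 80 min under some alternative settings.

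Each of the 13 times had 1 array and no replicate. Change was therefore measured against the scatter of the arrays around a fitted line, around a mean or around a curve, on the log2(intensity + 16) scale, which understates the fold of dim probe sets. A straight line over all times gave the change per 4 h. The arrays from 80 to 240 min were also set against those from 0 to 60 min, a contrast chosen with a break of many genes at that point already known, so its p-values are not independent evidence of the break. Late times (180 to 240 min) were set against early times (20 to 80 min), and a spline of time was tested as a whole. A probe set passed where its adjusted p was under 0.05 over all 20393 probe sets.

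Array medians lay between 237.4 and 251.5 intensity units, Spearman correlations between arrays ran from 0.983 to 0.997, and the ratio of the 3' to the 5' Gapdh control probe sets ran from 0.899 to 0.937. The same ratio for Actb was 1.26 and 1.27 at 80 and 100 min, the first arrays after the break, and 1.16 to 1.22 in the other 11, and its part in the changes was not tested. Of 11 keratinocyte markers on the array 10 were at or above the 40th percentile of mean level over genes, the measure used for every marker and gene list here, and their summed intensity was 66160 to 69430 up to 60 min and 67090 to 70810 from 80 min. Within that sum 5 of the 11 rose and 1 fell in the contrast at 80 min, where 13.4% and 13% of all genes did. Trp63 rose by 0.26 ± 0.0429 on the log2 scale (adjusted p = 0.000306) and the integrin gene Itga6 1.15-fold (adjusted p = 0.00387). The 1 that fell was Sfn (log2 change -0.08; adjusted p = 0.0388). Trp63 is the gene of p63, and whether its probe set also reads the retroviral transcript was not tested. These markers were named after their values were seen, and their part in the receptor changes was not tested. In bulk RNA, fewer cells of a type and less RNA per cell cannot be told apart.

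The promoters of the 3 genes that changed most are shown because Tnfrsf18 and Fas rose together while Tnfrsf12a fell. Each run is the 250 bases before the annotated start in RefSeq's table for GRCm38.p6, 5′ to 3′ on the gene's strand, and capitals mark letters that matched a searched motif. The Tnfrsf18 stretch is chr4:156026072-156026321 (plus strand), that of Fas is chr19:34290409-34290658 (plus strand) and that of Tnfrsf12a is chr17:23677450-23677699 (minus strand).
Tnfrsf18: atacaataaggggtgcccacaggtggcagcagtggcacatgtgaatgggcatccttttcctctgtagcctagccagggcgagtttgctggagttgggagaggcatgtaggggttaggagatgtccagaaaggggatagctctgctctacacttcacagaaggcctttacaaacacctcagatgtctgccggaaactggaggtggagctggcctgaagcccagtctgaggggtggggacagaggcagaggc
Fas: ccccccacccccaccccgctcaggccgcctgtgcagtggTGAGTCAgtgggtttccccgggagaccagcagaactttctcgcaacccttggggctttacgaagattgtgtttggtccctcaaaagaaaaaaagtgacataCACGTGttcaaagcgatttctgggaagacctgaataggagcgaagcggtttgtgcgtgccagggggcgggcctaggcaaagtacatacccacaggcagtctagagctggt
Tnfrsf12a: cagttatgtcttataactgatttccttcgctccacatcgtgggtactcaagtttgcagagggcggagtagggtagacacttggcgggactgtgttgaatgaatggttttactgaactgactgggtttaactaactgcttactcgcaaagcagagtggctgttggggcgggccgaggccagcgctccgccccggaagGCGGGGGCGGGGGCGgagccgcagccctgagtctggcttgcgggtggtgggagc

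The motifs searched on both strands were the AP-1 site TGANTCA, the Egr site GCGNGGGCG, the E-box CACGTG, the TATA box TATAAA, an NF-kB site, a p53-family half-site and the CArG box of SRF. The Fas stretch held TGAGTCA, an AP-1 match, 211 bases before the start and CACGTG 110 bases before it. The Tnfrsf12a stretch held 2 Egr matches, both GCGGGGGCG, at 54 and 48 bases before the start, which overlap each other. None of the motifs was found in the Tnfrsf18 stretch. Among 32851 promoters of the table, 6.75% held the AP-1 letters, 4.7% the Egr letters, 6.02% CACGTG and 12.4% TATAAA, and 3.9% held the NF-kB site, 7.13% the p53-family half-site and 1.47% the CArG box. The table held promoters of 8 of the 10 genes, without Tnfrsf10b and Tnfrsf22, and no NF-kB site or p53-family half-site was found in any of their 9 promoters. Elsewhere CACGTG was found in the promoter of Ltbr and in 1 of the 2 promoters of Tnfrsf19, and TATAAA on the reverse strand in that of Tnfrsf23. These are matches of letters, not measured binding sites, and a missing match says only that the letters are not in that window.

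**Figure D1:**
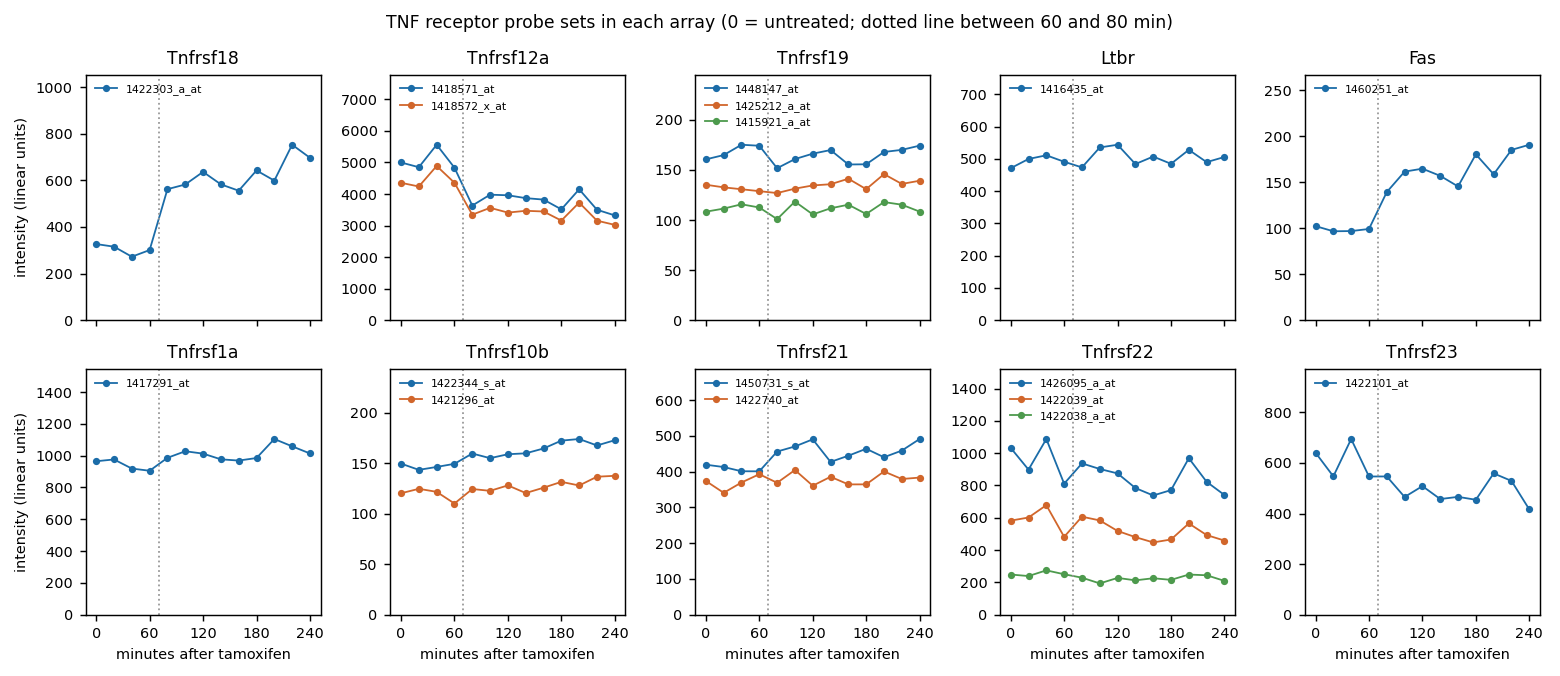
Intensity (linear units, axis from 0) of each TNF receptor probe set in each of the 13 arrays against minutes after tamoxifen, with 0 for untreated cells and a dotted line between 60 and 80 min. Tnfrsf18 and Fas are higher in every array from 80 min on than in every array up to 60 min, both Tnfrsf12a probe sets are lower, and Ltbr and Tnfrsf19 stay within a narrow band.

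Tnfrsf18 encodes the receptor of the TNF-family ligand Tnfsf18. Its probe set, 1422303_a_at, read 326.7 in untreated cells and 315.5, 272.5 and 301.0 at 20, 40 and 60 min. It read 562.0 at 80 min, and over the 9 arrays from 80 min its lowest value was 555.5, its median 598.7 and its highest 752.5. The lowest array after 60 min thus stood above the highest array before, and the 2 highest values, 752.5 and 696.6, were those at 220 and 240 min. The mean was 303.9 ± 23.4 (SD, n = 4 arrays) up to 60 min and 623.2 ± 66.1 (n = 9) from 80 min, a ratio of 2.05. On the log2 scale the difference was 0.99 ± 0.0741 (SE; adjusted p = 4.04e-07), the 4th-largest rise of the 20393 probe sets. The jump between the 60 and 80 min arrays was 0.87 on the log2 scale, and the next largest gap between neighbouring arrays was 0.32.

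The straight line gave Tnfrsf18 a 2.48-fold rise over 4 h (1.31 ± 0.199 on the log2 scale, SE; adjusted p = 0.000366). Late against early times the difference was 0.92 ± 0.162 (adjusted p = 0.00607), with the early window holding the 80 min array, whose level was already high. Within the 9 arrays from 80 min alone the slope was 0.113 per hour on the log2 scale (adjusted p = 0.301), and within the 4 arrays up to 60 min it was -0.1615 per hour. The protein-coding genes beside Tnfrsf18 on chromosome 4 are Ttll10, not described here, and Tnfrsf4, another costimulatory receptor gene of T cells. Tnfrsf4 read 348.0 ± 38.8 up to 60 min and 358.3 ± 29.0 from 80 min, and did not pass (adjusted p = 0.722 for that contrast and 0.92 for the line).

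T cells, the cells in which Tnfrsf18 is best known, were looked for by their markers. Of 14 T cell markers listed, 10 were on the array, 1 of them (the kinase gene Zap70) was at or above the 40th percentile, and 0 passed the line or the contrast at 80 min in limma (0 and 1 at an unadjusted p under 0.05). The summed intensity of the 10 was 1463 to 1581 up to 60 min and 1406 to 1620 from 80 min. Cd3e, a chain of the T cell receptor complex, lay between 140.4 and 168.4 in all arrays, and the mean levels of Cd3g and of Foxp3, the regulatory T cell factor gene, stood at percentiles 4 and 7.59 over genes.

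Of the receptors described, 4 carry a death domain: Fas, Tnfrsf1a, Tnfrsf10b and Tnfrsf21. Fas, probe set 1460251_at, read 102.3 in untreated cells and 96.69, 96.92 and 99.19 at 20, 40 and 60 min. It read 139.3 at 80 min and 190.7 at 240 min, with a median of 161.5 over the 9 arrays from 80 min. No array from 80 min overlapped those before, and 80 min was the lowest of the later values. The means were 98.77 ± 2.60 (SD, n = 4) and 164.7 ± 17.5 (n = 9), a ratio of 1.67. The difference was 0.65 ± 0.0644 on the log2 scale (SE; adjusted p = 3.36e-06), the 53rd-largest rise, and the line gave a 1.89-fold rise over 4 h (0.92 ± 0.119; adjusted p = 0.000186). Within the arrays from 80 min alone the Fas slope was 0.1136 per hour (adjusted p = 0.273).

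Fas was dim: its mean lay below the 40th percentile of all probe sets, an intensity of 187.3, which the array at 240 min alone exceeded. Late against early times Fas was 1.58-fold higher (0.66 ± 0.0903; adjusted p = 0.00471). Over the 9 arrays from 80 min alone, the Pearson correlation of Fas with Tnfrsf18 on the log2 scale was 0.90. The points are single arrays of 1 course and share the time order. The gene next to Fas on chromosome 19 is Acta2, the smooth muscle actin gene, whose fitted log2 change over 4 h was 0.22 (adjusted p = 0.025), while its difference at 80 min did not pass (adjusted p = 0.0848).

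Tnfrsf1a, the main receptor of TNF itself, lay between 905.2 and 1105 with a median of 985.3. Its mean was 941.4 ± 34.6 up to 60 min and 1015 ± 44.0 from 80 min, and these ranges overlapped. The difference of 0.11 ± 0.0416 on the log2 scale did not pass (adjusted p = 0.0734), nor did the line (0.107). With dim probe sets left out of the adjustment, the contrast at 80 min passed for Tnfrsf1a (adjusted p = 0.0496). It also passed with 1 probe set per gene as well (adjusted p = 0.0446), with quantile normalization (0.0499) and without the intensity trend (0.0486).

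Tnfrsf10b is the mouse death receptor of TRAIL, the ligand encoded by Tnfsf10. Its probe set 1422344_s_at read 149.7, 143.5, 146.4 and 149.5 in the 4 arrays up to 60 min. From 80 min it lay between 155.1 and 174.1 with a median of 164.7, above every earlier array. The line gave a 1.19-fold rise (0.25 ± 0.0457, SE; adjusted p = 0.00127) and the contrast at 80 min a 1.11-fold rise (adjusted p = 0.00582). The arrays at 80 to 140 min read 159.7, 155.1, 159.0 and 159.9, and those at 180 to 240 min read 172.5, 174.1, 167.7 and 172.9, so the last 4 arrays stood above the first 4 after the break. The best single break of this probe set lay between 140 and 160 min. With the 4 arrays of 80 to 140 min alone set against 0 to 60 min, the difference was 0.0951 on the log2 scale and did not pass (adjusted p = 0.116).

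The other Tnfrsf10b probe set, 1421296_at, had a mean of 119.2 ± 6.33 up to 60 min and 128.4 ± 5.93 from 80 min, with overlapping ranges. It rose 1.12-fold by the line (adjusted p = 0.0262) and did not pass the contrast at 80 min (adjusted p = 0.0815). The line was lost for it on omitting the 220 min or the 240 min array (adjusted p up to 0.081). Both Tnfrsf10b probe sets were below the 40th percentile. The suffix _s_at, also carried by 1 of the Tnfrsf21 probe sets, marks probes that can match more than 1 transcript.

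Tnfrsf21, another death domain receptor, was measured by a pair of probe sets that differed. The probe set 1450731_s_at read 419.2, 412.7, 400.9 and 400.7 up to 60 min and between 427.0 and 491.1 from 80 min, with no overlap. It was 1.12-fold higher from 80 min (0.16 ± 0.0431; adjusted p = 0.00946), and the line did not pass (adjusted p = 0.0700). Under 5 alternatives the line did pass for it: 0.0428 with dim probe sets left out, 0.0376 with 1 probe set per gene as well, 0.0474 without the intensity trend, 0.0337 with array weights and 0.0472 with the Gapdh ratio (adjusted p). The probe set 1422740_at lay between 340.6 and 392.6 up to 60 min and between 360.4 and 404.3 later, and passed neither test (adjusted p = 0.622 and 0.566). The change of Tnfrsf21 thus rests on 1 of its 2 probe sets.

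**Figure D2:**
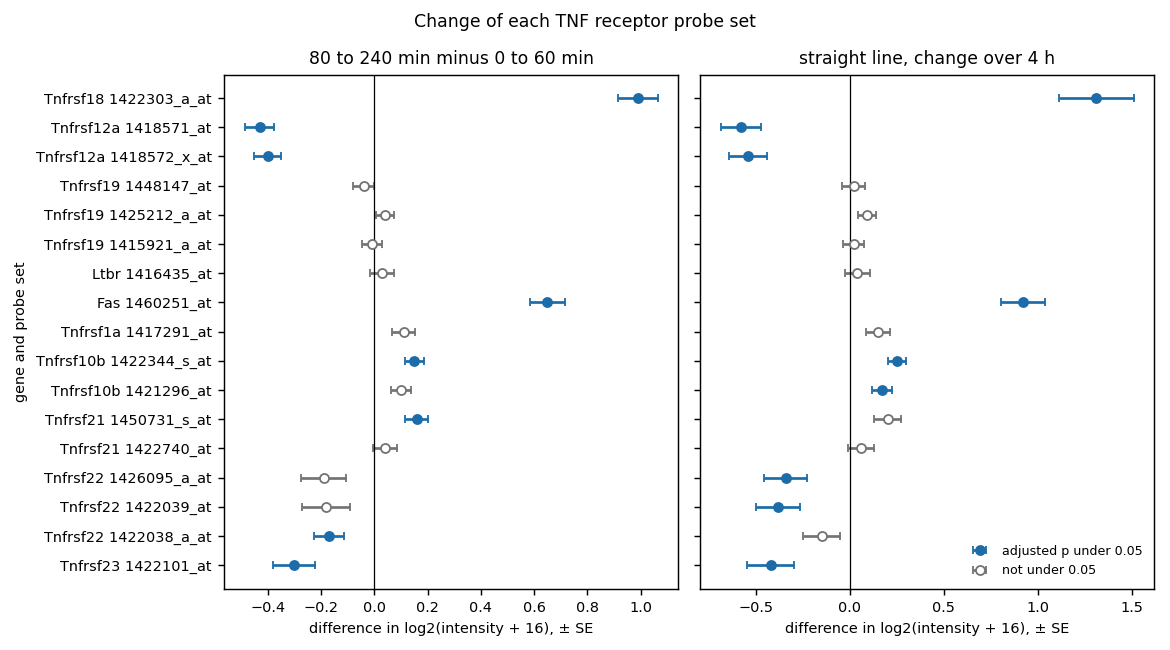
Change of each of the 17 probe sets as a difference in log2(intensity + 16), with bars of ± 1 SE, for 80 to 240 min minus 0 to 60 min (left) and for the straight line over 4 h (right); filled points had an adjusted p under 0.05. Tnfrsf18 at 0.99 and Fas at 0.65 lie farthest to the right in the left panel, and the Tnfrsf12a probe sets at -0.43 and -0.40 farthest to the left.

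Tnfrsf12a, Tnfrsf19 and Ltbr signal through TRAF proteins without a death domain. Tnfrsf12a is known as a receptor gene induced by growth factors and wounding. Its probe set 1418571_at read 5000, 4850, 5562 and 4834 in the 4 arrays up to 60 min. It read 3635 at 80 min and lay between 3323 and 4150 from then on, with a median of 3824. The highest later array, at 200 min, was below the lowest earlier array, and the lowest of all was that at 240 min. The means were 5062 ± 342 (SD, n = 4) and 3751 ± 271 (n = 9), and the fall was 0.43 ± 0.0545 on the log2 scale (SE; log2 change -0.43; adjusted p = 2.76e-05), the 373rd-largest fall of all probe sets.

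The other Tnfrsf12a probe set, 1418572_x_at, read 4356, 4239, 4889 and 4357 up to 60 min and between 3023 and 3729 from 80 min, with no overlap. It fell 1.32-fold (log2 change -0.40 ± 0.0512; adjusted p = 2.79e-05). By the line the change over 4 h was -0.58 ± 0.105 on the log2 scale for 1418571_at (adjusted p = 0.00104), and 1418572_x_at fell 1.45-fold (adjusted p = 0.00133). Late against early times the differences were -0.37 ± 0.0992 (adjusted p = 0.0277) and -0.36 ± 0.0911 (adjusted p = 0.0227). These late against early calls were lost for both probe sets on omitting the 20, 40, 60, 180, 220 or 240 min array (adjusted p up to 0.0946). For 1418571_at the call was also lost with the Gapdh ratio as a covariate (adjusted p = 0.054) and without the 200 and 220 min arrays (adjusted p = 0.0556). Within the arrays from 80 min alone the slope of 1418571_at was -0.0536 per hour (adjusted p = 0.531). The _x_at suffix marks probes that can cross-hybridise, and the pair may share probes.

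Tnfrsf19, a receptor known from hair follicle and other epithelial stem cells, was dim on all 3 of its probe sets. The probe set 1448147_at lay between 151.7 and 175.1, 1425212_a_at between 126.9 and 145.8 and 1415921_a_at between 100.9 and 118.4. None passed any of the 4 tests, and for the contrast at 80 min the differences were -0.04 ± 0.0404, 0.04 ± 0.0339 and -0.01 ± 0.0375 on the log2 scale (adjusted p = 0.525, 0.491 and 0.868). Ltbr, the lymphotoxin beta receptor, lay between 471.1 and 543.8 with a median of 499.7. Its difference was 0.03 ± 0.045 (adjusted p = 0.648) and its line 0.04 over 4 h (adjusted p = 0.737).

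Tnfrsf22 and Tnfrsf23 are neighbouring genes on chromosome 7 that encode mouse decoy receptors of TRAIL. Tnfrsf23, probe set 1422101_at, read 640.7, 547.0, 694.9 and 546.5 up to 60 min. From 80 min it lay between 416.2 and 558.8 with a median of 465.9. The groups overlapped, since the arrays at 80 and 200 min read 546.7 and 558.8. The means were 607.3 ± 73.3 (SD, n = 4) and 489.1 ± 48.4 (n = 9), and the difference was -0.30 ± 0.0794 on the log2 scale (SE; adjusted p = 0.00988). The line gave a 1.34-fold fall (adjusted p = 0.0237). Tnfrsf23 lost the contrast at 80 min without the 40 min array (adjusted p = 0.0612), and lost the line without the array at 0, 40 or 240 min (adjusted p up to 0.0967).

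The 3 probe sets of Tnfrsf22 differed in which test they passed. The probe set 1426095_a_at read 1033, 898.2, 1088 and 811.1 up to 60 min and between 738.0 and 968.9 from 80 min. It fell 1.27-fold by the line (adjusted p = 0.041) and did not pass the contrast at 80 min (-0.19 ± 0.0839; adjusted p = 0.123). The probe set 1422039_at read 582.1, 601.4, 677.9 and 481.6 up to 60 min and between 447.0 and 606.5 later. It fell 1.30-fold by the line (adjusted p = 0.0287) and did not pass the contrast at 80 min (adjusted p = 0.157). The probe set 1422038_a_at had means of 252.6 ± 15.1 and 222.3 ± 17.3, fell 1.13-fold at 80 min (adjusted p = 0.0338) and did not pass the line (adjusted p = 0.313). In each of the 3, the groups of arrays overlapped.

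None of these calls of Tnfrsf22 held for every array left out. The line was lost for 1426095_a_at without any 1 of 9 arrays (0, 40, 80, 120, 140, 160, 180, 220 or 240 min; adjusted p up to 0.144) and for 1422039_at without any 1 of 5 (0, 20, 40, 180 or 240 min; adjusted p up to 0.0771). The contrast at 80 min was lost for 1422038_a_at without any 1 of 6 (0, 40, 60, 140, 180 or 240 min; adjusted p up to 0.15). That contrast was gained by 1426095_a_at and 1422039_at with array weights (adjusted p = 0.0149 and 0.0219) and without the 60 min array (0.0346 and 0.0348).

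All 4 decoy probe sets had their highest value at 40 min, before the break. So did both Tnfrsf12a probe sets (5562 and 4889) and Tnfrsf19 1448147_at (175.1), so that peak was not particular to the decoys. From 60 to 80 min the log2 change was 0.0 for Tnfrsf23 and -0.12 for Tnfrsf22 1422038_a_at. For 1426095_a_at and 1422039_at it was a rise, of 0.2 and 0.32. All 4 decoy probe sets also read higher at 200 min than at 180 and 220 min, and Tnfrsf23 read 454.4, 558.8 and 529.0 at 180, 200 and 220 min. Other members did the same, among them Tnfrsf12a 1418571_at (3515, 4150 and 3502), Ltbr (484.7, 528.0 and 489.9) and Tnfrsf1a (985.3, 1105 and 1059). Tnfrsf18 and Fas did not. Over the 13 arrays Tnfrsf23 correlated with the 3 Tnfrsf22 probe sets at 0.88, 0.76 and 0.88 (Pearson, log2 scale), and over the 9 arrays from 80 min at 0.80, 0.66 and 0.77. These are descriptions of 1 course, with the arrays' own scatter shared by all probe sets, and Tnfrsf22 and Tnfrsf23 are close relatives in sequence whose probes may not separate them fully.

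**Figure D3:**
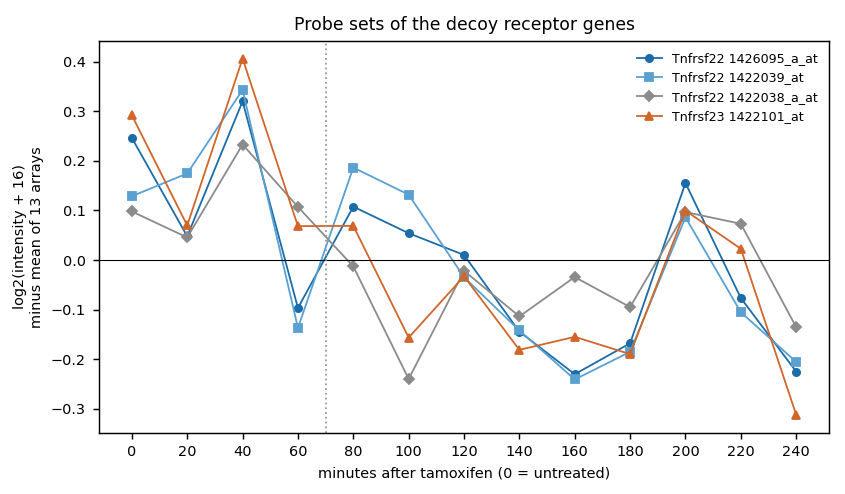
Difference of each Tnfrsf22 and Tnfrsf23 probe set from its own mean over the 13 arrays, in log2(intensity + 16), against minutes after tamoxifen (0 for untreated), with a dotted line between 60 and 80 min. All 4 lines peak at 40 min and stand higher at 200 min than at 180 and 220 min, and Tnfrsf23 has its lowest value at 240 min.

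Counted over the 17 probe sets, 4 rose and 5 fell by the straight line, where 12.2% of all probe sets rose and 10.2% fell. In the contrast at 80 min 4 rose and 4 fell, against 12.7% and 12.4% of all. Late against early, 3 rose and 2 fell, against 6.57% and 5.1% of all, and 5 of the 17 passed the spline test, against 12% of all. The 5 past the spline were those of Tnfrsf18 (adjusted p = 0.00279), Fas (0.00138), both Tnfrsf12a probe sets (0.0113 and 0.0149) and Tnfrsf10b 1422344_s_at (0.0188). For this Tnfrsf10b probe set the spline was lost without the 20 min array (0.0707) and without the 200 and 220 min arrays (0.0614). Its late against early call (adjusted p = 0.0145) was lost under the same 2 settings (0.0616 and 0.067). The member counts depended on single arrays: the line passed for 5 without the 240 min array, and late against early for 2 without the 20 min array and for 3 without that at 40, 180, 220 or 240 min. In 4 probe sets every array from 80 min was above every earlier array, where 7.18% of all were, and in 2 every later array was below, where 6.73% of all were. The best single break lay between 60 and 80 min in 6 of 17 (35.3%) and in 5209 of 20393 (25.5%).

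With 1 probe set per gene, the one with the highest mean, 3 of the 10 genes rose and 3 fell by the line, where 13.1% and 10.8% of all 12394 genes did. In the contrast at 80 min 4 rose and 2 fell, where 13.4% and 13% of all genes did. The median difference of the 17 probe sets at 80 min was 0.034 on the log2 scale, where that of all probe sets was -0.005. The median slope was 0.01 per hour for the 17 and -0.001 for all. Of the 17, 11 were at or above the 40th percentile and 6 were below it, namely the 3 of Tnfrsf19, both of Tnfrsf10b and that of Fas. All 17 were tested, dim ones included. The probe sets of 1 gene share their transcript and are not independent of each other.

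The line and the break could not be separated in these genes. When the break between 60 and 80 min was added to the model as a block, 0 of the 17 passed in limma. Of the 17, 5 had an unadjusted p under 0.05. Over all 20393 probe sets, 0 passed as well, and 3294 had an unadjusted p under 0.05. For Tnfrsf18 the slope left over was 0.0918 per hour (adjusted p = 0.282) and for Fas 0.1023 per hour (adjusted p = 0.176).

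Of the TNF-family ligands, 14 of 19 listed genes were on the array and 1 was at or above the 40th percentile. By the line 1 rose and 0 fell in limma (1 and 2 at an unadjusted p under 0.05), and at 80 min 1 rose and 2 fell. For these and the next lists, the shares of all genes were 13.1% and 10.8% by the line and 13.4% and 13% at 80 min. The one that rose was Tnfsf9, the ligand of the costimulatory receptor Tnfrsf9, from 129.8 ± 5.68 to 161.5 ± 8.35 (1.32-fold over 4 h; adjusted p = 0.00061). Fasl, the ligand of Fas, lay between 105.7 and 126.0 and Tnfsf10 between 83.44 and 90.35. Tnf lay between 165.6 and 216, and its mean fell from 199.3 ± 15.5 to 174.1 ± 8.76 (1.13-fold at 80 min; adjusted p = 0.0105). The other ligand gene that fell at 80 min was Tnfsf13b (1.09-fold; adjusted p = 0.0241). Both falls were named after their values were seen, and all of these ligand genes were dim.

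Of the other receptors of the family, 15 of 18 listed were on the array and 2 were at or above the 40th percentile. By the line 0 rose and 2 fell in limma (0 and 3 at an unadjusted p under 0.05), and the counts at 80 min were the same. Tnfrsf11b, the soluble decoy receptor of the bone-resorption ligand Tnfsf11, fell 1.18-fold by the line (adjusted p = 0.021), and Cd40 fell 1.15-fold (adjusted p = 0.0488). Both were dim.

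Of the adaptors and kinases that bind the receptors or act downstream of them, 20 of 23 were on the array, 16 of them at or above the 40th percentile. By the line 2 rose and 3 fell, and at 80 min 2 rose and 1 fell. Siva1, an adaptor known for binding the receptor Cd27, rose from 1225 ± 107 to 1966 ± 189 (1.97-fold over 4 h; adjusted p = 0.00015). Ripk3, the kinase of necroptosis, rose 1.44-fold (adjusted p = 0.000521). Tab3, a partner of the kinase Map3k7, fell 1.49-fold (adjusted p = 0.0302) and Tank, a TRAF-binding protein, fell 1.27-fold (adjusted p = 0.0392). Neither Tab3 nor Tank passed the contrast at 80 min (adjusted p = 0.23 and 0.215).

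Of the caspase pathway downstream of death receptors all 12 genes on the array (15 listed) were at or above the 40th percentile. By the line 4 rose and 1 fell (13.1% and 10.8% of all genes), and at 80 min 5 rose and 1 fell (13.4% and 13%). Apaf1, the scaffold of the apoptosome, rose from 352.5 ± 25.9 to 508.3 ± 51.1 (1.64-fold over 4 h; adjusted p = 0.000763). Casp6, an executioner caspase, rose from a mean of 342.3 to one of 490.1 (lowest array 326.3, highest 531.1; 1.58-fold; adjusted p = 0.000729). Dffb, the nuclease that cuts DNA in apoptosis, rose 1.36-fold (adjusted p = 0.00166). Faim, which is known to inhibit Fas-induced death and so acts against the list's name, rose 1.32-fold (adjusted p = 0.000843). Bid, which links Casp8 to mitochondria and is named here after its values were seen, fell by 0.25 on the log2 scale (adjusted p = 0.0202).

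Of the inhibitors and regulators of TNF signalling, 11 of 14 were on the array and 9 at or above the 40th percentile. By the line 1 rose and 3 fell, and at 80 min 2 rose and 4 fell. Tnip1, which works with Tnfaip3 to restrain NF-kB, fell from 1012 ± 114 to 731.1 ± 58.0 (1.46-fold over 4 h; adjusted p = 0.0108), and Tnfaip3, a ubiquitin-editing enzyme, fell 1.14-fold (adjusted p = 0.0426). Relb, which is a subunit of NF-kB and not an inhibitor of the receptors, fell 1.30-fold (adjusted p = 0.00653). Rbck1, a subunit of the linear ubiquitin ligase complex, rose 1.26-fold (adjusted p = 0.00482).

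The lists were described by counts and medians alone. The median difference at 80 min, on the log2 scale, was -0.036 for the ligands, -0.037 for the other receptors, 0.04 for the adaptors, 0.092 for the caspase pathway and -0.023 for the inhibitors, where it was -0.004 over all genes.

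**Figure D4:**
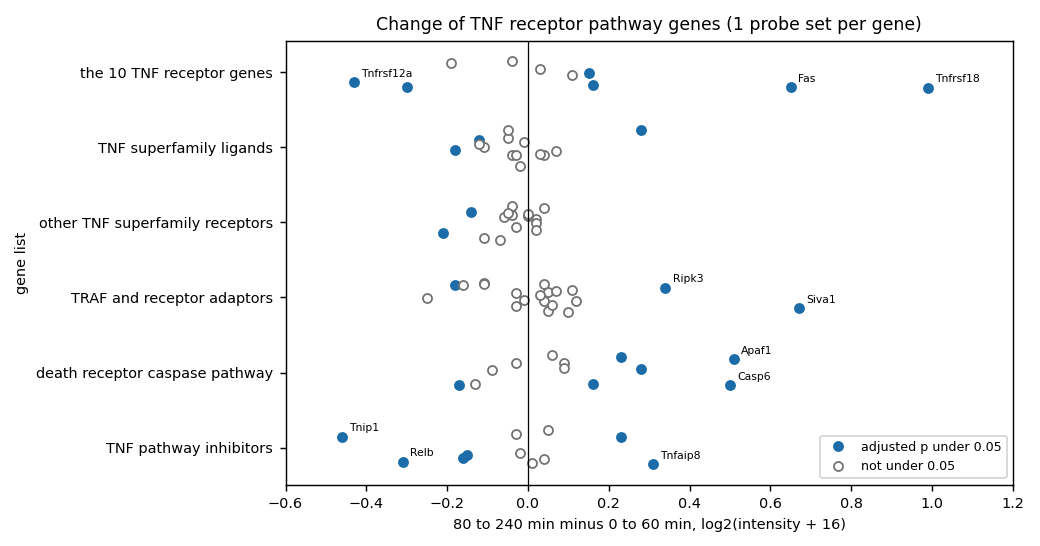
Difference between 80 to 240 min and 0 to 60 min in log2(intensity + 16), 1 point per gene (its probe set with the highest mean), for the 10 receptor genes and 5 lists of related genes; vertical position within a row is only for legibility, filled points had an adjusted p under 0.05, and genes more than 0.3 from 0 are named. The ligands and the other receptors all lie within 0.3 of 0, and Siva1 at 0.67, Apaf1 at 0.51 and Casp6 at 0.5 lie to the right.

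The genes whose course was most like that of Tnfrsf18, among 7351 genes at or above the 40th percentile, were Akr1b8, an aldo-keto reductase gene (Pearson r = 0.993 over 13 arrays), Ifitm3, an interferon-induced gene (0.991), Mcam, a cell adhesion molecule gene (0.99), Dglucy (0.987) and Psrc1 (0.987). Over the 9 arrays from 80 min alone these values were 0.92, 0.89, 0.94, 0.90 and 0.83. Ifitm3 went from 1865 ± 150 to 3155 ± 273, and Akr1b8 from 480.4 ± 29.2 to 722.2 ± 32.0. In all, 365 genes had r above 0.9 with Tnfrsf18.

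The genes most like Tnfrsf12a (1418571_at) were Sbds, a ribosome assembly factor gene (r = 0.972), Pacsin3 (0.97), Sqstm1, an autophagy receptor gene (0.967), Wwc1 (0.967) and Hes1, a target gene of Notch (0.966). Over the 9 arrays from 80 min these were 0.78, 0.82, 0.75, 0.83 and 0.89. Sqstm1 went from 3736 ± 435 to 2191 ± 192, and Hes1 from 613.9 ± 11.8 to 477.2 ± 31.1. In all, 242 genes had r above 0.9 with it.

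Markers of other cell types were measured beside these changes, and their part in them was not tested. Langerhans and other myeloid markers had 3 of 10 at or above the 40th percentile, with a summed intensity of 1889 to 2105 up to 60 min and 1866 to 2125 from 80 min. Of these Cd14 rose 1.43-fold by the line (adjusted p = 0.00102) and Cd68 fell 1.46-fold (adjusted p = 0.00151), and Ptprc, the marker of all white blood cells, stood at percentile 1.18. Fibroblast markers summed to 1693 to 1760 and then 1634 to 1822, with 2 of 10 at or above the 40th percentile. Fbln1 rose 1.17-fold by the line (adjusted p = 0.00581) and Col3a1 fell 1.10-fold at 80 min (adjusted p = 0.0126). Melanocyte markers summed to 6565 to 7490 and then 6234 to 6928 (6 of 8), and Mitf, the melanocyte factor gene, fell 1.27-fold by the line (adjusted p = 0.0119) and 1.18-fold at 80 min (adjusted p = 0.00723), with no overlap. The other melanocyte markers on the array passed neither the line nor the contrast at 80 min. Among them Dct, Tyrp1 and Pmel were bright, at percentiles 93.1, 88.4 and 88.0 over genes. Endothelial and muscle markers summed to 4449 to 4559 and then 4494 to 5421 (4 of 10), and of these Acta2 alone passed the line. The marker genes were named after their values were seen.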

How the data were processed

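Total RNA was hybridised to Affymetrix mouse arrays, 1 per time, with RNA extracted by Trizol and biotinylated cRNA made by the array maker's protocol, per the labels' protocols. Each deposited value is the intensity of 1 of 22690 probe sets on 1 array, on a linear scale. The tools for probe summary and levelling of arrays are not given in the sources used here. Levelling removes any change shared by most transcripts, so each change is relative to the typical gene.

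The platform table named 20393 probe sets to 1 gene, 691 to several and 1606 to none, and only the first were used. Symbols of 20364 were updated through a RefSeq table of GRCm38.p6. Intensities entered the fits as log2(intensity + 16), without renormalization or a filter on dim probe sets. Fits were made with limma 3.58.1 in R 4.3.3 (lmFit and eBayes with an intensity trend, two-sided, Benjamini-Hochberg over all 20393, threshold 0.05). They were a straight line in time, 80 to 240 min (9 arrays) against 0 to 60 min (4 arrays), 180 to 240 min against 20 to 80 min in a model of 4 windows, and a natural cubic spline with 3 degrees of freedom. Adjusted p-values come from these fits. Where an alternative setting is named, they come from limma fits under that setting, adjusted over the probe sets it tested. With 1 array per time, p-values measure only the scatter of these arrays, which may be technical. Their number limits the precision. The code was tested on simulated data.

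The members, gene lists and contrasts were chosen with earlier results of these data known. Every probe set of the 10 genes is described. Of each list, up to 4 genes past the line with the largest slopes are named, and for the largest rise and fall among the members the 5 genes with the highest Pearson correlation, leaving out unnamed, RIKEN and Gm transcripts. Alternatives covered filters, pseudocounts, normalization, moderation, array weights, an RNA integrity covariate, parts of the course and each array left out.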

Additional observations from a re-analysis of the deposited data

Results flagged for a closer look

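Each of the 17 probe sets was examined over 4 sets of arrays (0 to 60, 20 to 80, 80 to 240 and 180 to 240 min). Of these 68 sets 2 held an array that stood apart from the rest of its set, and by chance about 1 in 20 sets would. In the early window of 20 to 80 min, Fas read 139.3 at 80 min and 96.69 to 99.19 in the other 3 arrays, a gap of 0.932 of the log2 range where 0.829 is the limit for 4 arrays. In the same window Tnfrsf23 read 694.9 at 40 min and 546.5 to 547.0 in the other 3, a gap of 0.997 of the log2 range. For Fas the 80 min array is the first after the break and lies inside that window.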

How the results depend on the processing

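Tnfrsf18, Fas and both Tnfrsf12a probe sets kept their calls at 80 min under every setting that tested them, and by the line under all except the block for the break and the 2 parts of the course. Fas was not tested where dim probe sets were left out, nor Tnfrsf12a 1418572_x_at with 1 probe set per gene. Tnfrsf12a 1418571_at lost late against early with the Gapdh ratio (adjusted p = 0.054) and without 200 and 220 min (0.0556). With any 1 array omitted, the difference at 80 min ran from 0.9462 to 1.029 for Tnfrsf18, 0.6243 to 0.6758 for Fas and -0.4529 to -0.3857 for Tnfrsf12a 1418571_at. Of 1653 single values under alternatives, 1524 kept direction and side of the threshold, 68 lost a call, 29 gained one and 32 changed sign. Causes were not tested beyond what each setting's construction shows.

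The line passed for 4571 probe sets (9 of the 17 members). It passed for 2968 (5 members) with 1 probe set per gene and dim genes left out, which tests fewer probe sets, for 0 (0 members) with the break at 80 min as a block in limma (3294 and 5 at an unadjusted p under 0.05), for 3 (0 members) from 80 min alone and for 29 (0 members) up to 60 min alone. Leaving out dim probe sets left 11 of the 17 members to test, and 1 probe set per gene as well left 7. The 5 members past the line under both were of these 7. The contrast at 80 min went from 5117 (8 of 17 members) to 3104 (5 of 7) under both together. Late against early went from 2380 (5 members) to 4865 (9 members) with array weights, 1526 with the Gapdh ratio and 605 without the 200 and 220 min arrays. Its member count was 3 of 11 with dim probe sets left out and 2 of 7 with 1 probe set per gene as well. The spline went from 2452 (5 members) to 6361 (9 members) with array weights. It passed for 3 of 11 members with dim probe sets left out and 2 of 7 with 1 probe set per gene as well. With 1 array omitted, the line passed for 5 to 9 members and for 3114 to 4809 probe sets in all. Late against early passed for 2 to 7 members and for 870 to 3879 in all. The spline passed for 4 to 6 members and for 1483 to 3612 in all. Omitting 20 min gave 1483 for the spline, and late against early gave 870 without 20 min, 921 without 40 min, 1163 without 220 min and 3879 without 80 min.

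The sign changes were all in values that did not pass under the alternative. Late against early, Tnfrsf19 1448147_at (0.0046) became -0.0048 with quantile normalization, -0.0160 with median centring, -0.0064 with array weights, -0.0141 with the Gapdh ratio and -0.0122 without 200 and 220 min, and 1415921_a_at (0.0200) became -0.0006 with centring, -0.0196 with weights and -0.0330 without 200 and 220 min. Ltbr became -0.0038 with weights. Per hour by the line, without 200 and 220 min, 1415921_a_at was -0.0059 and 1448147_at -0.0006. Tnfrsf22 1422038_a_at was 0.0375 with the block and 0.0352 from 80 min alone, and Ltbr -0.0043 from 80 min alone. Up to 60 min alone the slopes were -0.1615 for Tnfrsf18, -0.0335 for Fas, 0.0154 and 0.0618 for Tnfrsf12a, -0.1076 for Tnfrsf1a, -0.1104 for Tnfrsf10b 1421296_at, -0.0685 for Tnfrsf21 1450731_s_at, -0.0621 for Tnfrsf19 1425212_a_at and 0.0647 for Tnfrsf22 1422038_a_at. With 1 array omitted, Tnfrsf19 1448147_at ran from -0.0032 to 0.0120 per hour and from -0.0351 to 0.0351 late against early, 1415921_a_at from -0.0258 to 0.0031 at 80 min and from -0.0161 to 0.0422 late against early, and Ltbr from -0.0008 to 0.0391 late against early.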
